A study of Mus musculus with 4 samples.

Results

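The tumour suppressor p53, encoded by Trp53, and 9 genes that it is known to switch on were followed through neural differentiation of mouse embryonic stem (ES) cells with and without the de novo DNA methyltransferases. The genes were chosen by symbol as Trp53, Mdm2, Cdkn1a, Ccng1, Bax, Aen, Trp53inp1, Phlda3, Zmat3 and Sesn2. They and the gene lists below were chosen with earlier results of these data known. Counts set beside shares of all genes are therefore description and not a test. All 10 were found among the 23235 gene symbols measured. RNA had been depleted of rRNA and sequenced in 4 libraries, with 1 library in each group. DKO_NP was made from cells double knockout for Dnmt3a and Dnmt3b, carried as embryoid bodies for 4 days and then treated with retinoic acid for 2 days, and was taken at day 6 as neural progenitor cells. DKO_ES was the undifferentiated knockout line at day 0, grown with serum and leukemia inhibitory factor. WT_NP and WT_ES were the same stages of wild-type cells of the J1 background. The strain was 129S4/SvJae in every group, and all ES cells had been kept on irradiated feeder cells in earlier passages. Whether the knockout line was 1 clone is not given in the sources used here.

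The p53 protein is a transcription factor that is held low by constant destruction and becomes stable when DNA is damaged or ribosomes fail. Mdm2 is the ubiquitin ligase that marks it for destruction, and since Mdm2 is itself a p53 target the pair form a feedback loop. Other targets stop the cell cycle, open mitochondria for apoptosis, or adjust growth signals and metabolism. Mouse ES cells are known for abundant p53 and for a weak arrest before S phase.

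Promoter sequences are shown first, because p53 acts through a known DNA element and because the enzymes missing from the knockout lines methylate CpG dinucleotides. RefSeq windows of 300 bases on GRCm38.p6, which run from 250 bases before a transcription start to 50 after it, were used for 8 of the 10 genes (not Trp53inp1 and Zmat3), with 2 starts each for Cdkn1a and Aen. Each was searched on both strands for the p53 decamer consensus, a 10-base palindrome. It was present in 7 of the 10 windows, from 6 genes, against 8.36% of 32851 windows of all genes. Among 12871 windows of genes that reached 1 FPKM in any library the share was 6.91%. The decamer of Aen lies in both of its overlapping windows and was counted in each. A full element of 2 decamers with at most 13 bases between them was found in 1 member window, the upstream start of Cdkn1a. The share was 0.0731% of all windows and 0.0466% of those of genes at 1 FPKM. Counted from the start site, its decamers begin at -73 and -51, with 12 bases between. Only exact matches to the consensus were counted. The 10 bases directly after the decamer at -51, tgacatgttc, miss the consensus at 1 base, the first, and stay in lower case below. Which pair of decamers p53 uses there cannot be read from this search. The following windows cover the p53 gene itself, its feedback inhibitor, the member with the full element, the member highest in DKO_NP relative to WT_NP and the member whose ratios spread most, with decamers in capitals. They read 5′ to 3′ on the strand of the gene, and lie at chr11:69580109-69580408 (plus strand) for Trp53, chr10:117710709-117711008 (minus) for Mdm2, chr17:29090729-29091028 (plus) for Cdkn1a, chr7:78895808-78896107 (plus) for Aen and chr1:135765835-135766134 (plus) for Phlda3.
Trp53: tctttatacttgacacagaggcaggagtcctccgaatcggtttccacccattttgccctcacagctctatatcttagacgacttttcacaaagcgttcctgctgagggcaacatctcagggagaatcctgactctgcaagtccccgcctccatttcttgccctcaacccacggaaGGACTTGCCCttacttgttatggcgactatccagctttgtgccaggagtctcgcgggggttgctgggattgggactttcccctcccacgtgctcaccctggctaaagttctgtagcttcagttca
Mdm2: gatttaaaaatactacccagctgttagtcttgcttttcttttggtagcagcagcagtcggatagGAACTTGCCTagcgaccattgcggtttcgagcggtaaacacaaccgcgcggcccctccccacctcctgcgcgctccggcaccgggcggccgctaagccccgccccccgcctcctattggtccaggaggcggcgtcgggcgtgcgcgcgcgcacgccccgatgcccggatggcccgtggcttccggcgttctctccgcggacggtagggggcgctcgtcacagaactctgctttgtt
Cdkn1a: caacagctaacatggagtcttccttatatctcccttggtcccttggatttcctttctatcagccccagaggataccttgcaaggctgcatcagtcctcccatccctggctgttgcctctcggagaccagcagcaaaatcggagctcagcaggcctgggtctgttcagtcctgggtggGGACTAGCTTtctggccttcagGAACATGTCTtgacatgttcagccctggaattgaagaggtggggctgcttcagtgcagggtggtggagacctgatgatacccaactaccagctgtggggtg
Aen: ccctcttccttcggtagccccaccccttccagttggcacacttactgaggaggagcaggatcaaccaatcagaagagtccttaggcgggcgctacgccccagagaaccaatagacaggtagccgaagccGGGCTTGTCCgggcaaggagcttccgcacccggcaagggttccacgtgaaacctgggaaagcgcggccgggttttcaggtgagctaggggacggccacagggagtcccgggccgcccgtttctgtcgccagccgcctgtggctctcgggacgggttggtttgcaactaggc
Phlda3: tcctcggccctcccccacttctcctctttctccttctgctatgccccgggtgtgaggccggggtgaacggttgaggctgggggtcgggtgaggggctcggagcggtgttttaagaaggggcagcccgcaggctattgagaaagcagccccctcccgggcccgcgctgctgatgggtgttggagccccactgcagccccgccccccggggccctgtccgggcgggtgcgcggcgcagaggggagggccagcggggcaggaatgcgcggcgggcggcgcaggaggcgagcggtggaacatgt
The decamers of Ccng1, GGGCAAGCCT, and Bax, AGGCAAGCTT, begin at -185 and -201 from their starts. No decamer was found in the windows of Phlda3 and Sesn2 or at the downstream start of Cdkn1a. The Phlda3 window ends in gaacatgt, which matches the start of the consensus. The window is cut there, so a decamer across its edge would be missed. These matches describe letters and not bound sites, and the genes were chosen as known p53 targets.

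CpG content differed between the windows. With at least 50% G + C and a ratio of observed to expected CpG of at least 0.6 taken as CpG-rich, 8 of the 10 member windows were CpG-rich, against 62.6% of 12871 windows of genes that reached 1 FPKM in any library. The upstream start of Cdkn1a held 2 CpG, with a ratio of 0.0892, while its downstream start held 23, with a ratio of 0.786. Mdm2 had the most among these windows, with 35 CpG and a ratio of 1.12. Trp53 held 10 CpG, with a ratio of 0.494. Values are per gene, so RNA from the Cdkn1a starts cannot be separated, and DNA methylation was not analysed here.

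**Figure D1:**
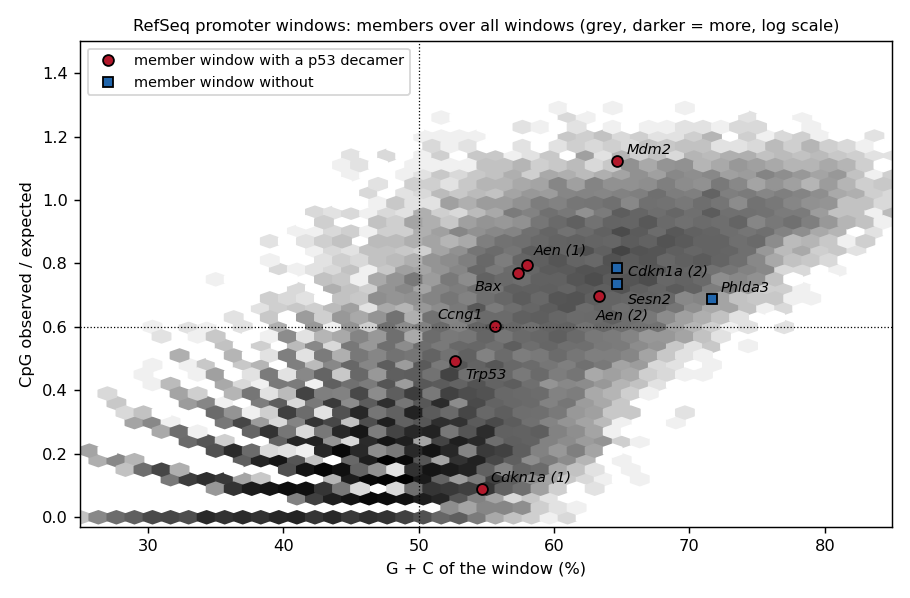
Ratio of observed to expected CpG (y axis) against G + C in percent (x axis) of 300-base RefSeq promoter windows; grey hexagons are all 32851 windows, red circles are member windows with a p53 decamer and blue squares those without. The upstream Cdkn1a window, marked (1), lies at 0.0892, far below its downstream window at 0.786, and dotted lines mark 50% and 0.6.

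The identity of the libraries was checked before the genes were read. Dnmt3a stood at 4.14 FPKM in DKO_NP, 12.3 in DKO_ES, 17.2 in WT_NP and 35.3 in WT_ES, and Dnmt3b at 5.22, 13.9, 9.98 and 140.3 FPKM in the same order; values per gene do not show which exons the remaining RNA holds. Of 10 ES cell markers all 10 were at least 2-fold lower at day 6 in both genotypes. The share of all genes was 11.2% in knockout and 11.3% in wild-type cells after scaling. All 10 neural progenitor markers were at least 2-fold higher in DKO_NP than in DKO_ES, against 11.8% of genes (10 as deposited, against 7.84%). In WT_NP over WT_ES 8 of the 9 neural markers at 1 FPKM in either library were 2-fold higher (5 as deposited). The shares of all genes there were 16.2% and 6.4%. Left out there was Fabp7, at 0.823 FPKM in WT_NP and listed at 0 in WT_ES. Markers of other lineages were present at day 6: the scaled FPKM of 8 endoderm markers, Gata4 among them, summed to 32.8 in DKO_NP and 192 in WT_NP, that of 8 mesoderm markers to 16.2 and 106, and that of 4 primitive red cell markers to 81.0 and 1140. None of these 20 was listed at 0 at day 6. Each library is a bulk sample, so fewer cells of a type and less RNA per cell cannot be told apart. Denominators read from the steps of low values were about 25.7, 15.4, 37.2 and 14.2 M reads in DKO_NP, DKO_ES, WT_NP and WT_ES, and the 10 genes had between about 414 and 7345 reads in a library. With 1 library per group no difference has a replicate check and no test was run; the 95% intervals in brackets rest on approximate reads and cover counting error only.

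All 10 genes were well expressed in every library. FPKM, reads per kilobase of transcript scaled to the size of the library, ranged over the 10 genes from 13.8 to 109 in DKO_NP (median 38.5), from 20.9 to 212 in DKO_ES (median 60.9), from 11.1 to 62.3 in WT_NP (median 26.2) and from 30.8 to 246 in WT_ES (median 83.5). The median over all genes at or above 1 FPKM was 11.5, 14.7, 8.96 and 15.4 FPKM in the same order. Bax had the highest FPKM of the 10 in all 4 libraries. Cdkn1a had the lowest except in WT_NP, where Sesn2 was lower. Trp53 and Ccng1 held the second and the third place in all 4, with Trp53 ahead at day 0 in both genotypes and Ccng1 ahead at day 6. Levels of different genes also depend on the authors' transcript lengths, which no source used here states.

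Whole libraries differed in level, so comparisons were made after median scaling, which divides each library by the median ratio of its genes to their mean over libraries. The median gene as deposited had a log2 ratio of -0.06 in DKO_ES over WT_ES, 0.39 in DKO_NP over WT_NP, -0.82 in WT_NP over WT_ES and -0.43 in DKO_NP over DKO_ES. Folds below are ratios of scaled FPKM. Log2 ratios carry a pseudocount of 1 FPKM and were called at a size of 1, which is 2-fold, among genes that reached 1 FPKM in one of the paired libraries.

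**Figure D2:**
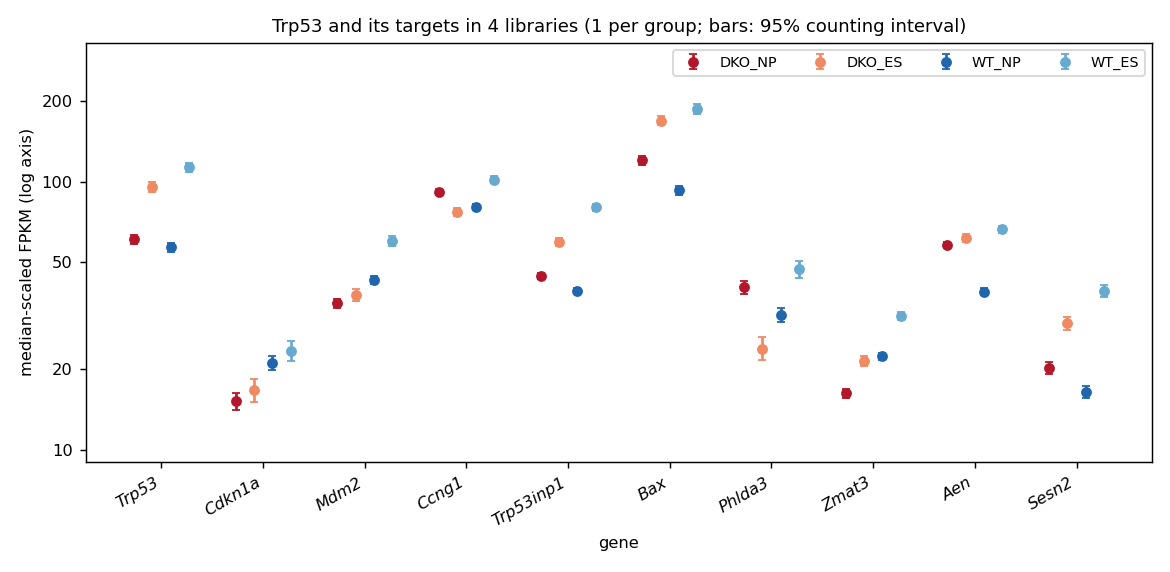
Median-scaled FPKM (y axis, log scale) of each gene (x axis) in DKO_NP, DKO_ES, WT_NP and WT_ES; points are single libraries and bars are 95% counting intervals. Each of the 10 genes is lower in DKO_ES than in WT_ES, and Cdkn1a lies between 15.2 in DKO_NP and 23.4 in WT_ES.

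Loss of Dnmt3a and Dnmt3b in undifferentiated cells went with lower RNA of all 10 genes, by modest amounts. In DKO_ES over WT_ES the log2 ratios lay between -0.95 and -0.10 with a median of -0.41, while the median of the 13596 genes compared was 0.01. All 10 were below 0, as were 48.5% of all genes; as deposited all 10 were also below 0, as were 57.1% of genes, and 42.9% were above. None of the 10 was 2-fold lower and none 2-fold higher, against 1.15% and 2.56% of genes. The p53 gene itself stood at 119 FPKM in DKO_ES and 149 in WT_ES, and was 1.19-fold lower after scaling (interval 1.12 to 1.26). Its inhibitor Mdm2 stood at 47.3 FPKM in DKO_ES and 79.2 in WT_ES, 1.59-fold lower (1.49 to 1.70). Of the genes compared, 3.27% had a lower ratio than Mdm2 here.

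The arrest gene Cdkn1a, whose product p21 inhibits cyclin-dependent kinases, stood at 20.9 FPKM in DKO_ES and 30.8 in WT_ES, and was 1.40-fold lower (1.23 to 1.59). Ccng1, which encodes cyclin G1, a partner of protein phosphatase 2A, had 96.8 FPKM in DKO_ES against 134 in WT_ES, 1.32-fold lower (1.26 to 1.38). Of the genes of cell death, Bax and Aen differed least of the 10. Bax, the pore former of the outer mitochondrial membrane, had 212 FPKM in DKO_ES and 246 in WT_ES, and was 1.11-fold lower (1.04 to 1.17). Aen, a nuclease that promotes apoptosis, had 77.3 FPKM in DKO_ES and 87.7 in WT_ES, 1.08-fold lower (1.03 to 1.13). Trp53inp1, a nuclear protein that aids p53 and autophagy, had 74.6 against 106 FPKM, in DKO_ES and WT_ES in that order, and was 1.35-fold lower (1.29 to 1.41).

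Among the targets that curb growth signals, Phlda3 differed most. Phlda3, a pleckstrin-homology protein that holds back the kinase Akt, stood at 29.9 FPKM in DKO_ES and 62.2 in WT_ES, 1.98-fold lower (1.75 to 2.23). A lower ratio was found for 1.34% of the genes compared. As deposited it was past 2-fold, at a log2 ratio of -1.03, as were 1.52% of genes, and no member was 2-fold higher, against 2.62%. Zmat3, an RNA-binding zinc finger protein, had 26.9 FPKM in DKO_ES and 41.6 in WT_ES, 1.47-fold lower (1.39 to 1.56). Sesn2, a stress-induced inhibitor of the growth kinase mTORC1, had 37.1 FPKM in DKO_ES against 51.6 in WT_ES, 1.32-fold lower (1.23 to 1.42). Fibroblast markers, which can mark feeder cells, were also lower in sum: 8 of them came to 148 scaled FPKM in DKO_ES and 203 in WT_ES. Fn1 alone made up 136 and 156 of these, and the other 7 came to 12.6 in DKO_ES and 46.3 in WT_ES. Of these 7, Tagln alone held 7.33 and 30.7 scaled FPKM. Col1a1 stood at 1.07 FPKM in DKO_ES and 8.93 in WT_ES. Of the 6 markers at 1 FPKM in either library, 5 were lower in DKO_ES. The other, Thy1, had 4.81 FPKM in DKO_ES and 4.61 in WT_ES. Of the 8, 4 reached 1 FPKM in DKO_ES and 6 in WT_ES, and Lum was listed at 0 in WT_ES. Their part in the p53 gene differences was not tested.

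**Figure D3:**
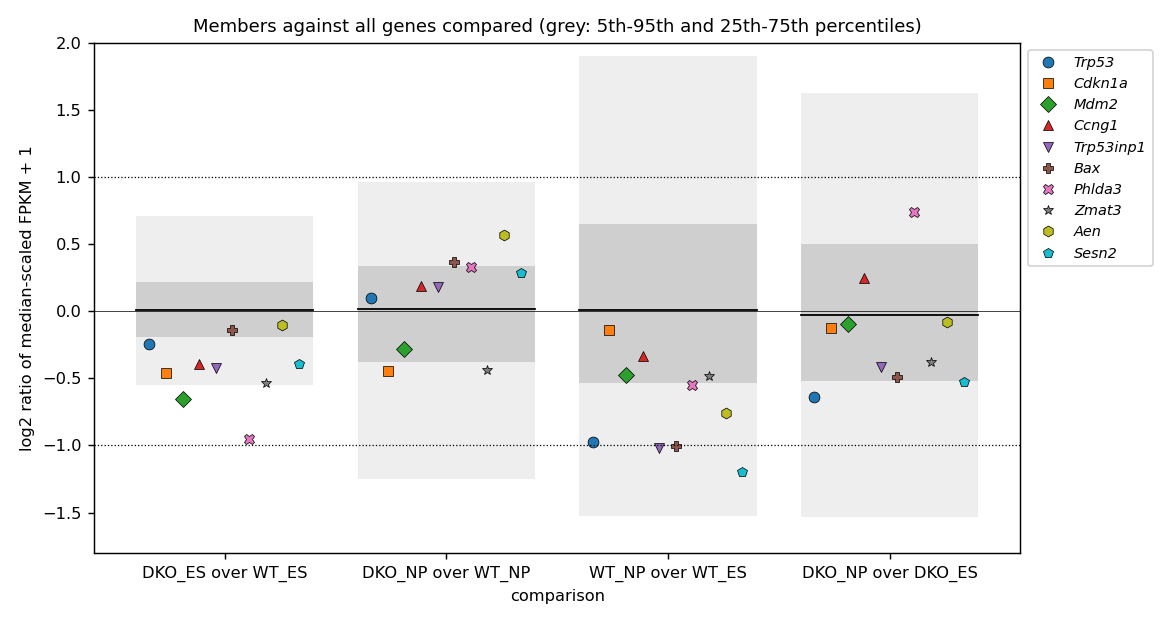
Log2 ratio of median-scaled FPKM + 1 (y axis) of the 10 genes in the 4 comparisons (x axis), over grey bars that span the 5th to 95th and 25th to 75th percentiles of all genes compared, with a black line at their median; dotted lines mark 2-fold. In DKO_ES over WT_ES all 10 points lie below 0, between -0.95 and -0.10, and in DKO_NP over WT_NP 7 lie above 0.

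At day 6 the knockout and wild-type libraries no longer differed in one direction over these genes. In DKO_NP over WT_NP the median log2 ratio of the 10 was 0.18, with a range of -0.45 to 0.57, and that of 13601 genes was 0.01. After scaling 7 were above 0, as were 51% of genes, and 3 below, as were 49%; as deposited 8 were above 0, as were 75.1% of genes. None of the 10 was at 2-fold in either direction, against 4.76% of genes higher and 7.99% lower (10.2% and 3.9% as deposited). Trp53 had 55.4 FPKM in DKO_NP and 38.2 in WT_NP, and 61.0 and 57.0 after scaling, 1.07-fold higher (1.01 to 1.13).

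Cdkn1a, Mdm2 and Zmat3 were lower in the knockout on both days after scaling. Cdkn1a was 1.39-fold lower in DKO_NP than in WT_NP (1.26 to 1.53), at 13.8 FPKM in DKO_NP and 14.1 in WT_NP. Zmat3 was 1.37-fold lower (1.31 to 1.44), at 14.7 FPKM in DKO_NP and 15.0 in WT_NP. Mdm2 was 1.22-fold lower (1.16 to 1.28), but as deposited it was higher, at 32.0 FPKM in DKO_NP and 28.9 in WT_NP. In DKO_NP over WT_NP 21.9% of the genes compared had a lower ratio than Cdkn1a, and 22.4% a lower ratio than Zmat3, so neither stands at the edge of all genes.

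The other 6 target genes had higher values in DKO_NP than in WT_NP, all short of 2-fold. Aen had 52.8 FPKM in DKO_NP and 26.1 in WT_NP, and was 1.49-fold higher after scaling (1.44 to 1.55). Bax had 109 FPKM in DKO_NP against 62.3 in WT_NP, 1.29-fold higher (1.23 to 1.36). Phlda3 was 1.27-fold higher (1.17 to 1.37), at 36.7 FPKM in DKO_NP and 21.4 in WT_NP. Sesn2 was 1.23-fold higher (1.14 to 1.32), and Ccng1 and Trp53inp1 were each 1.14-fold higher (1.1 to 1.18 for Ccng1 and 1.09 to 1.18 for Trp53inp1). Sums of marker lists differed in this comparison too. The 10 ES cell markers summed to 456 scaled FPKM in DKO_NP and 147 in WT_NP. Dppa5a alone made up 293 and 84.8 of these. The 10 neural progenitor markers summed to 282 and 141, and the 8 fibroblast markers to 81.8 and 212 (37.4 and 83.5 without Fn1). None of these markers was listed at 0 in either library. Of the 10 ES cell markers 1, Klf4, was lower in DKO_NP, as was 1 of the 10 neural markers, Meis2. Of the 5 fibroblast markers at 1 FPKM in either library, 4 were lower in DKO_NP and Col1a2 was higher. The part of these markers, and of the endoderm, mesoderm and red cell markers summed above, in the p53 gene differences was not tested.

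Differentiation of wild-type cells went with lower levels of the whole set. In WT_NP over WT_ES all 10 genes were below 0 after scaling, as were 49.4% of 14086 genes, and the median of the 10 was -0.65 against 0.01 for all genes. Of the 10, 3 were at least 2-fold lower, against 11.3% of genes, and none was 2-fold higher, against 16.2%. As deposited all 10 were at least 2-fold lower, against 41.7% of genes, and none was higher, against 6.4%; 20.8% were above 0 by any amount. The 3 were Sesn2 at 2.38-fold (2.21 to 2.55), Trp53inp1 at 2.05-fold (1.97 to 2.13) and Bax at 2.01-fold (1.90 to 2.13). Bax lay just inside the limit at a log2 ratio of -1.0, and Trp53 just outside at -0.98; with upper quartile scaling, 1 of the 10 passed, Sesn2.

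Trp53 stood at 38.2 FPKM in WT_NP and 149 in WT_ES, and was 1.99-fold lower after scaling (1.88 to 2.10). Aen was 1.71-fold lower (1.64 to 1.78) and Phlda3 1.48-fold lower (1.35 to 1.62). Zmat3 was 1.41-fold lower (1.35 to 1.48), Mdm2 1.40-fold (1.32 to 1.47) and Ccng1 1.26-fold (1.21 to 1.31). Cdkn1a differed least, at 14.1 FPKM in WT_NP and 30.8 in WT_ES as deposited and at 21.1 and 23.4 after scaling, 1.11-fold lower (1.0 to 1.23). The 10 thus spread from nearly level after scaling (Cdkn1a) to more than 2-fold lower (Sesn2). ES cell markers summed to 147 scaled FPKM in WT_NP and 5963 in WT_ES and neural markers to 141 and 23.0, with Fabp7 listed at 0 in WT_ES; the part of cell identity in these differences was not tested.

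In knockout cells the median of these genes lay nearer to 0 between day 6 and day 0, and Phlda3 was higher at day 6. In DKO_NP over DKO_ES 8 of the 10 were below 0 after scaling, as were 51.3% of 14050 genes, and 2 above, as were 48.7%; as deposited 9 were below 0, as were 71.1%. The median log2 ratio of the 10 was -0.25, against -0.03 over all genes. None reached 2-fold after scaling, against 11.2% of genes lower and 11.8% higher; as deposited 1, Trp53, was 2-fold lower and none higher, against 21.8% and 7.84%. Trp53 had 55.4 FPKM in DKO_NP and 119 in DKO_ES, 1.56-fold lower after scaling (1.48 to 1.66). Sesn2 was 1.46-fold lower (1.36 to 1.58), Bax 1.41-fold (1.33 to 1.49), Trp53inp1 1.34-fold (1.29 to 1.40) and Zmat3 1.32-fold (1.25 to 1.40).

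Some members stood close to level in the knockout differentiation. Cdkn1a was 1.1-fold lower, with an interval of 0.971 to 1.24 that spans no difference. Mdm2 was 1.07-fold lower (1.0 to 1.14), at 32.0 FPKM in DKO_NP and 47.3 in DKO_ES, and Aen 1.06-fold lower (1.02 to 1.11). Phlda3 went the other way, at 36.7 FPKM in DKO_NP and 29.9 in DKO_ES, 1.70-fold higher (1.52 to 1.90), and it was higher as deposited too. Ccng1 was 1.19-fold higher (1.14 to 1.24) after scaling but lower as deposited, at 83.5 FPKM in DKO_NP and 96.8 in DKO_ES. ES cell markers summed to 456 scaled FPKM in DKO_NP and 6787 in DKO_ES, and neural markers to 282 and 28.4, none of them listed at 0; their part was not tested.

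The difference of the log2 differentiation ratios, knockout minus wild type, was above 0 for all 10 genes, as it was for 50% of 14713 genes after scaling and for 75.1% as deposited, where all 10 were again above 0. Its median over the 10 was 0.54, against 0.00 over all genes; as deposited the medians were 1.05 and 0.43. Phlda3 had the highest value, 1.29, with a ratio of 0.74 in knockout and -0.55 in wild-type cells, and 97.5% of genes had a lower value. After scaling it alone of the 10 was at or above 1, as were 4.31% of genes; as deposited 6 of the 10 were (with Aen, Sesn2, Trp53inp1, Ccng1 and Bax), as were 11.8% of genes. Sesn2 and Aen followed, both at 0.67, then Trp53inp1 at 0.60, Ccng1 at 0.58 and Bax at 0.51. Trp53 stood at 0.34 and Mdm2 at 0.38. Zmat3 at 0.10 and Cdkn1a at 0.02 had nearly the same ratio in both genotypes. This difference uses all 4 libraries and equals the genotype log2 ratio at day 6 minus that at day 0. It therefore adds no independent evidence to those ratios, and it was not tested. The same WT_ES library also enters both DKO_ES over WT_ES and WT_NP over WT_ES, so these results are not independent of each other. Scaled FPKM of the 10 genes summed to 750 in WT_ES, 593 in DKO_ES, 503 in DKO_NP and 443 in WT_NP. DKO was below WT at day 0 and above it at day 6 for 7 of the 10 genes, as for 20.7% of 12484 genes after scaling; as deposited this was 8 of the 10, against 43.3%.

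**Figure D4:**
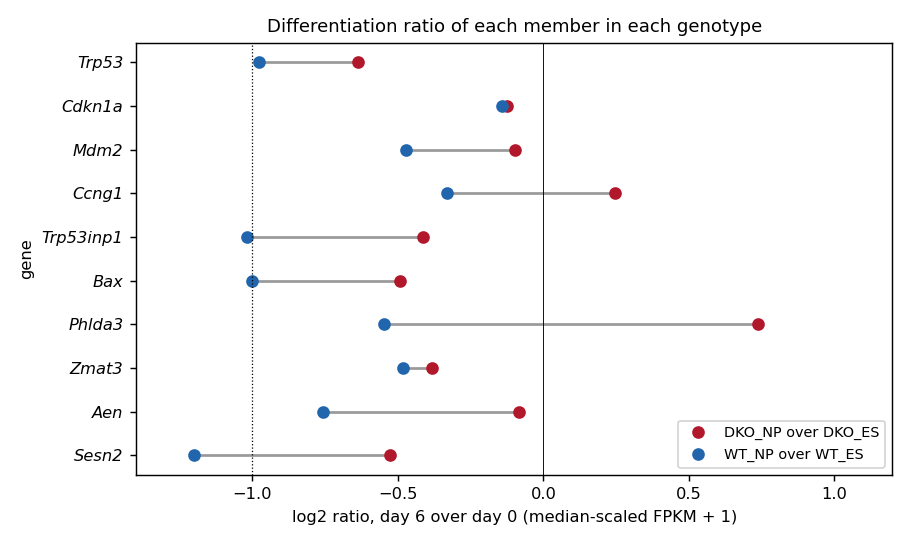
Log2 ratio of day 6 over day 0 (x axis, median-scaled FPKM + 1) of each gene (y axis) in knockout (DKO_NP over DKO_ES, red) and wild-type cells (WT_NP over WT_ES, blue); each point is 1 library against 1, and the dotted line marks 2-fold lower. The red point lies to the right of the blue one for all 10 genes, by 0.02 for Cdkn1a and by 1.29 for Phlda3.

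Profiles over the 4 libraries fell into different shapes. The likeness measure was the Euclidean distance between log2 profiles centred on their means, over 4 libraries and among 7202 other named genes with 5 FPKM or more throughout. Nearest to Trp53 were Haus1, a subunit of the augmin complex of the spindle, at 0.0508, Nr1h2, a nuclear receptor of oxysterols, at 0.0514 and Pfas, an enzyme of purine synthesis, at 0.0677. Of the other members, Trp53inp1 came closest to Trp53, at 0.167 and place 60, followed by Sesn2 at place 77 and Bax at place 134, while Phlda3 was farthest at place 4534. Nearest to Cdkn1a were Ankzf1 at 0.0245, Edc4, a scaffold of mRNA decapping, at 0.0363 and Cic, a transcriptional repressor, at 0.0443. Mdm2 at place 114 and Zmat3 at place 248 were the members most like Cdkn1a, and Sesn2 was the least like it at place 4924. With 4 points per profile many genes lie this close, and nothing follows from a place about shared control.

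Regulators of p53 were read next, from a list of 16. In DKO_ES over WT_ES none passed 2-fold, against 1.15% of all genes lower and 2.56% higher, and the median log2 ratio was 0.08. In DKO_NP over WT_NP 1 was higher and none lower, against 4.76% and 7.99% of genes: Cdkn2a, the locus of p16 and of Arf, the inhibitor of Mdm2, had 13.5 FPKM in DKO_NP and 2.21 in WT_NP, 4.52-fold higher (3.49 to 5.91). Values are per gene, so RNA for p16 and for Arf cannot be separated. The list's median in DKO_NP over WT_NP was -0.13 after scaling and 0.29 as deposited. Cdkn2a was 2.80-fold lower in WT_NP than in WT_ES (2.05 to 3.85), and 1.39-fold higher in DKO_NP than in DKO_ES (1.12 to 1.73), at scaled levels of 14.9 and 10.7 FPKM. As deposited Cdkn2a was nearly level there, at 13.5 FPKM in DKO_NP and 13.4 in DKO_ES. Chek2, the checkpoint kinase that phosphorylates p53, was 3.26-fold lower in DKO_NP than in DKO_ES (2.93 to 3.63) and 2.61-fold lower in WT_NP than in WT_ES (2.38 to 2.87). Hipk2, another kinase of p53, was 4.03-fold (3.66 to 4.45) and 6.50-fold (5.81 to 7.29) higher in the same comparisons. Of the 16, 1 was 2-fold higher in either differentiation, and 1 was lower in knockout (3 as deposited) and 3 in wild-type cells (7 as deposited), beside the shares of all genes given above. Usp7, the deubiquitinase of p53 and Mdm2, was the other regulator past 2-fold lower in WT_NP, at a log2 ratio of -1.0, with 38.6 FPKM in WT_NP and 154 in WT_ES. Mdm4, the Mdm2 relative that silences p53, had 25.9 FPKM in DKO_NP and 71.8 in DKO_ES, a log2 ratio of -0.98. Of the p53 relatives, Trp73 stood at 0.108, 2.18, 0.0850 and 3.36 FPKM in DKO_NP, DKO_ES, WT_NP and WT_ES, and Trp63 was below 1 FPKM in all 4.

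A further 36 p53 targets were sorted by role into arrest, apoptosis, repair and metabolism, and 33 of them reached 1 FPKM in either library of each comparison. In DKO_ES over WT_ES 23 of the 33 were below 0 after scaling, as were 48.5% of all genes. Their median was -0.23 (-0.31 as deposited). Of the 33, 1 was 2-fold lower (2 as deposited) and none higher, against 1.15% (1.52% as deposited) and 2.56% of genes. That gene was Perp, a p53-induced desmosome protein, with 9.17 FPKM in DKO_ES and 22.5 in WT_ES, 2.33-fold lower (1.94 to 2.81). By role the medians were -0.35 for 9 arrest, -0.33 for 9 apoptosis and -0.19 for 6 repair genes, but 0.13 for 9 metabolic genes. In DKO_NP over WT_NP the 33 had a median of 0.04 (0.45 as deposited), and 1 was 2-fold higher and none lower, against 4.76% and 7.99% of genes; as deposited 5 were higher and none lower, against 10.2% and 3.9%. The 1 was Plk3, a stress-activated kinase, with 29.7 FPKM in DKO_NP and 5.31 in WT_NP, 4.14-fold higher (3.74 to 4.59). Of the 9 apoptosis targets 6 were below 0 there after scaling, as were 49% of all genes, with a median of -0.19 (0.21 as deposited). Bax, Aen and Trp53inp1 were above 0, as were 51% of genes.

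In wild-type differentiation more of these targets were lower than higher. In WT_NP over WT_ES 7 of the 33 were 2-fold lower and none was higher, against 11.3% and 16.2% of all genes, and their median was -0.53 (-1.41 as deposited). As deposited 20 of the 33 were lower and none higher, against 41.7% and 6.4%. Sfn, the 14-3-3 sigma protein that holds cells in G2, was 8.93-fold lower (7.69 to 10.4) and Gtse1, a p53-binding protein of G2 and S phase, 3.08-fold (2.90 to 3.26). Of the apoptosis genes Pmaip1, which encodes Noxa, was 4.66-fold lower (3.96 to 5.49) and Bbc3, which encodes Puma, 2.42-fold (2.16 to 2.71). Gls2, the mitochondrial glutaminase, was 3.67-fold lower (3.17 to 4.25), and Tigar, a regulator of glycolysis listed as 9630033F20Rik, 3.40-fold (3.0 to 3.85); Gpx1, a glutathione peroxidase, was the third metabolic gene, with a log2 ratio of -1.07. Of 12 mitotic genes 3 were 2-fold lower as well, Cdc20 at 2.29-fold (2.2 to 2.39), Ccnb1 at 2.19-fold (2.12 to 2.26) and Ccnb2 at a log2 ratio of -1.08, and the median of the 12 was -0.78; as deposited 10 were. The part of the cell cycle in the p53 target values was not tested.

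In DKO_NP over DKO_ES 4 of the 33 targets were 2-fold lower and 2 were higher, against 11.2% and 11.8% of all genes; the median was -0.24 (-0.68 as deposited). As deposited 9 were lower and 1 higher, against 21.8% and 7.84% of genes. Those lower were Pmaip1 at 3.04-fold (2.57 to 3.60), Gls2 at 2.83-fold (2.48 to 3.23), Tigar at 2.48-fold (2.22 to 2.77) and Sfn at 2.43-fold (2.12 to 2.79). Those higher were the arrest genes Rprm, at 4.90-fold (3.15 to 8.0), and Plk2, at 2.18-fold (1.97 to 2.42). Rprm was low, at 5.63 FPKM in DKO_NP and 1.58 in DKO_ES. Plk2 was past 2-fold only after scaling, with a log2 ratio of 0.63 as deposited. None of 12 mitotic genes passed 2-fold in that comparison (4 lower as deposited), and their median was -0.41. In DKO_ES over WT_ES 8 of the 12 mitotic genes were below 0 after scaling, as were 48.5% of all genes, with a median of -0.12. In DKO_NP over WT_NP 2 of the 12 were below 0, as were 49% of all genes, with a median of 0.28 (0.71 as deposited). The part of the cell cycle in these genotype differences was not tested either.

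**Figure D5:**
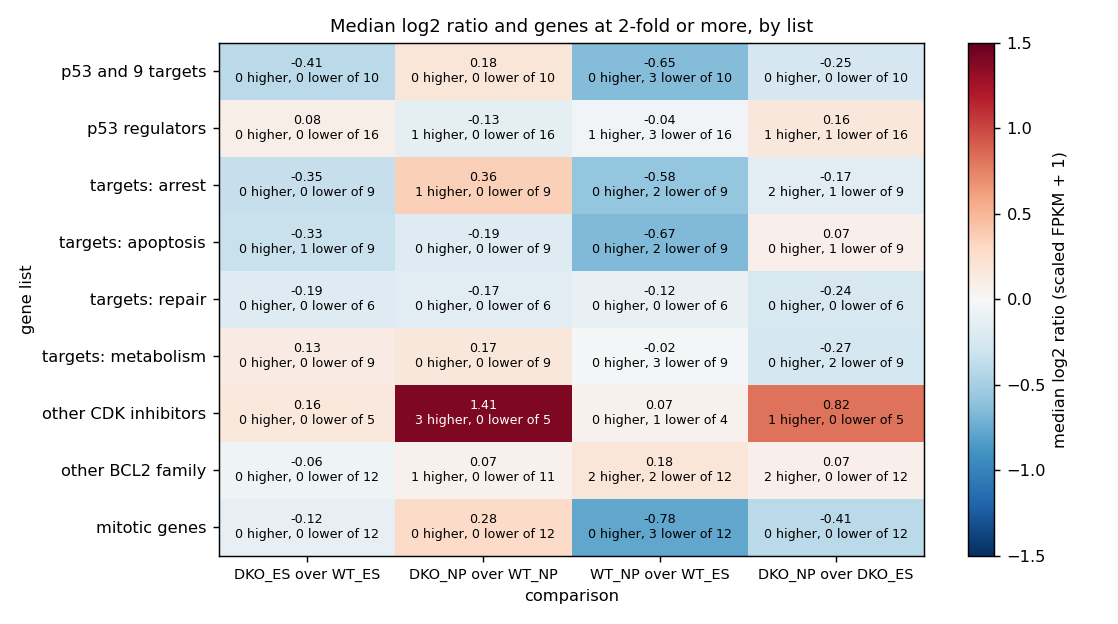
Median log2 ratio (colour and upper number, scaled FPKM + 1) of each gene list (y axis) in the 4 comparisons (x axis), with the number of genes at least 2-fold higher or lower among those at or above 1 FPKM. The p53 set is at -0.41 in DKO_ES over WT_ES, -0.65 in WT_NP over WT_ES and -0.25 in DKO_NP over DKO_ES, and the highest median, 1.41, is that of 5 other CDK inhibitors in DKO_NP over WT_NP.

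Cdkn1a was set beside 6 other CDK inhibitors, of which 5 reached 1 FPKM in the day 6 comparison. In DKO_NP over WT_NP 3 of the 5 were 2-fold higher and none was lower, after scaling (against 4.76% and 7.99% of genes) and as deposited (10.2% and 3.9%); their median was 1.41, while Cdkn1a was at -0.45. Besides Cdkn2a, which is in both lists, they were Cdkn1c, the imprinted inhibitor p57, with 81.2 FPKM in DKO_NP and 17.6 in WT_NP, 3.42-fold higher (3.20 to 3.64), and Cdkn2c, which encodes p18, with 4.00 FPKM in DKO_NP and 0.697 in WT_NP. In DKO_ES over WT_ES none of 5 passed 2-fold, against 1.15% of all genes lower and 2.56% higher. Cdkn1c was also 3.90-fold higher in DKO_NP than in DKO_ES (3.56 to 4.29), where Cdkn1a was 1.1-fold lower.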

How the data were processed

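RNA depleted of rRNA was sequenced from 4 mouse libraries, 1 per group (single-end, 50 cycles, 15 cycles of PCR from 5 µg, per the labels' protocols). Bowtie, TopHat and the build mm9 are named in the submitters' processing notes, with no version. As for the program behind FPKM, its annotation and its treatment of strand: none is given in the sources used here. The authors deposited FPKM for 23235 symbols in 1 table; 18 blank rows were left out and 0 columns were unmapped. A listed 0 can be a failed estimate, since Lars2 has 10341 FPKM in DKO_ES and is listed at 0 in WT_ES.

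Median scaling rested on the 11334 genes with 1 FPKM or more in every library, and its factors came to 0.908 (DKO_NP), 1.25 (DKO_ES), 0.671 (WT_NP) and 1.32 (WT_ES). Log2 ratios used a pseudocount of 1 FPKM, which understates differences of low genes. Low values below 0.3 FPKM are whole multiples of 1 read (849 of 972 genes, 87.3%, within 0.04 read), which gave relative denominators; transcript lengths from GENCODE M21, found for 98.0% of symbols, gave approximate reads. These were reduced where their sum passed the denominator. Intervals are exact (Clopper-Pearson for folds, Poisson for levels) at 95%; PCR copies are not independent molecules. After the reduction of reads, a count of 3 approximate reads in a 2 kb gene is 0.0599, 0.155, 0.0403 and 0.170 FPKM in DKO_NP, DKO_ES, WT_NP and WT_ES. The full denominators would give lower values where reads were reduced.

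In GENCODE M21, exons of Bax overlap Gm45808 over 192 bases and those of Cdkn1a overlap the antisense AC167363.2 over 273 bases; the other 8 members overlap none. No further transcript matched a member at 95% identity over 200 bases. The mm9 values carry no coordinates; promoter windows are RefSeq, GRCm38.p6.

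Each comparison set 1 library against 1, so no test was run; an additive model of genotype and day over the 4 libraries was not used. The members and all gene lists were chosen with earlier results of these data known. From each pathway list up to 2 highest and 2 lowest genes past 2-fold were named per comparison. Usp7, Mdm4, Gpx1, Cdkn2c, Ccnb2, Ccng2 and the markers Col1a1, Col1a2, Tagln, Thy1, Dppa5a, Klf4 and Meis2 were named after their values were seen. Pidd and Tigar were found as Lrdd and 9630033F20Rik. Alternatives were no scaling, upper quartile scaling, pseudocounts of 0.1 and 5 FPKM, no filter and a filter at 5 FPKM. The procedure was tested on simulated data, in which only DKO_ES held changed genes. The simulation thus does not check the scaling where many genes differ between day 0 and day 6. Python 3.11.15, pandas 2.3.3, NumPy 2.4.6, SciPy 1.17.1 and matplotlib 3.10.9 were used.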

Additional observations from a re-analysis of the deposited data

Results flagged for a closer look

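For 7 of the 10 genes the knockout library was higher than wild type at day 6 and lower at day 0 after median scaling, which is an opposite direction under the same contrast; with 1 library per group the difference was not tested. The same pattern was found for 20.7% of 12484 genes. The log2 ratio of DKO over WT at day 6 minus that at day 0 was 1.29 for Phlda3, 0.67 for Aen, 0.67 for Sesn2, 0.60 for Trp53inp1, 0.58 for Ccng1, 0.51 for Bax and 0.34 for Trp53. As deposited these 7 and Mdm2 had opposite signs, as had 43.3% of genes, and a cause was not tested.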

How the results depend on the processing

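With 1 library per group no replicate could be left out. No paired analysis was possible because each group holds 1 library and the result comes from no test. Without scaling, the number of members at least 2-fold lower was 1 (not 0) in DKO_ES over WT_ES, 10 (not 3) in WT_NP over WT_ES and 1 (not 0) in DKO_NP over DKO_ES, and the medians were 0.61 in DKO_NP over WT_NP, -1.60 in WT_NP over WT_ES and -0.69 in DKO_NP over DKO_ES. With upper quartile scaling 1 member was 2-fold lower in WT_NP over WT_ES, with a median of -0.57, and with a pseudocount of 5 FPKM 1 was. The filter settings and the pseudocount of 0.1 FPKM moved no count, and no median by more than the members' median counting interval. The sign of 2 single ratios changed without scaling, Mdm2 in DKO_NP over WT_NP and Ccng1 in DKO_NP over DKO_ES, and 0 under upper quartile scaling or another pseudocount. Most members differ by less than 2-fold, a size that cannot be separated here from the spread between cultures.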

Other observations

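Close relatives of the 10 genes were also read. Phlda2, an imprinted relative of Phlda3, had 74.4 FPKM in DKO_NP and 4.76 in WT_NP, 11.5-fold higher (9.66 to 13.9), and was 15.2-fold lower in WT_NP than in WT_ES (12.7 to 18.4). Phlda1 was 2.58-fold lower in DKO_NP than in WT_NP (2.28 to 2.92; log2 ratio -0.84 as deposited). In differentiation it was 14.1-fold higher in DKO_NP than in DKO_ES (8.14 to 26.8) and 10.3-fold (7.63 to 14.2) in WT_NP against WT_ES. Phlda1 levels were low at day 0, at 0.702 FPKM in DKO_ES and 2.62 in WT_ES, against 7.18 in DKO_NP and 13.7 in WT_NP. With the pseudocount its log2 ratios were 2.51 in knockout and 2.84 in wild-type cells. Sesn3, a relative of Sesn2, was 3.17-fold higher (2.99 to 3.36) in WT_NP, at 26.9 FPKM, than in WT_ES, at 16.7, where Sesn2 was 2.38-fold lower; as deposited its log2 ratio was 0.66. Ccng2, a relative of Ccng1, had 17.8 FPKM in WT_NP and 13.8 in WT_ES, a log2 ratio of 1.26 after scaling, where that of Ccng1 was -0.33. Zmat4 had 0.0851 FPKM in WT_NP and 2.69 in WT_ES.

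Of 12 other genes of the BCL2 family, to which Bax belongs, Bok, a relative of Bax, was 3.02-fold higher in DKO_NP than in WT_NP (2.52 to 3.64) and 3.51-fold lower in WT_NP than in WT_ES (2.87 to 4.29). Mcl1, which blocks apoptosis, was 2.11-fold lower in WT_NP than in WT_ES (2.04 to 2.19). Bik, which promotes apoptosis, was 4.16-fold higher in DKO_NP than in DKO_ES (3.09 to 5.70) and 2.30-fold (1.71 to 3.15) in WT_NP against WT_ES. Bcl2 was 4.68-fold (3.38 to 6.64) and 3.76-fold (2.93 to 4.89) higher in the same comparisons. As deposited, with no pseudocount, the WT_NP value of Bik was 1.17-fold that of WT_ES, and Bcl2 was 3.40-fold higher in DKO_NP than in DKO_ES and 1.91-fold in WT_NP against WT_ES, from Bcl2 levels of at most 2.10 FPKM. None of the 12 passed 2-fold in DKO_ES over WT_ES, against 1.15% of all genes lower and 2.56% higher.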
